A study of Homo sapiens with 15 samples.

Results

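MPP8 occupancy was examined at 9 genes of class I antigen processing: the peptide transporter genes TAP1 and TAP2, the immunoproteasome genes PSMB8 and PSMB9, TAPBP, B2M, the peptidase genes ERAP1 and ERAP2, and NLRC5. They are 9 of the 20037 protein-coding genes of the RefSeq annotation on the assembled chromosomes. The genes were chosen by their role in the pathway, with peak counts of these same lists already known, so that the number of them with a peak is a description and was not tested. A gene was counted when a peak overlapped its annotated body, or lay within 5 kb of an end, by 1 bp or more.

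The data are ChIP-seq peak lists from K-562, an established chronic myeloid leukaemia line. One list came from a library of TASOR KO cells and the other from a library of TASOR2 KO cells. Chromatin of both was precipitated with the same antibody to MPP8. Per the labels' protocols the knockouts were made with CRISPR/Cas9 and grown from single sorted cells, so each genotype stands for clonal cells, and transduction with an empty puromycin vector or a tagged transgene is described for the series without saying which of these libraries received it. The other 13 samples of the series, unedited and MPP8 knockout cells among them, were not analysed here, and signal without MPP8 was therefore not measured. With 1 library per genotype there is no replicate error, and differences are between 2 lists. The TASOR KO list holds 427 peaks and the TASOR2 KO list 264. Peak numbers in both have gaps, so each is part of a longer list, and no source used here says how its peaks were chosen. The narrowest peaks measured 504 bp in the TASOR KO list and 501 bp in the TASOR2 KO list, so any shorter calls are not in them. A gene without a peak in either list is therefore not shown to lack MPP8. The peak names are tagged 0.5 for TASOR KO and 0.3 for TASOR2 KO, without a stated meaning. The largest deposited q is 0.460 and 0.258, each below its tag, so the lists may have been made with different settings. By q, the TASOR KO list holds weaker calls than any in the TASOR2 KO list. Counts from the whole lists are therefore at unlike thresholds. Sequencing depth is unknown because the lists carry no read counts.

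Class I molecules show peptides from inside the cell to cytotoxic T cells. Peptides cut by the proteasome are carried into the endoplasmic reticulum by the TAP transporter, trimmed by the ERAP peptidases and loaded, with the help of tapasin, onto heavy chains bound to beta-2 microglobulin. Most genes of this route are induced by interferons through factors that bind the interferon-stimulated response element (ISRE), and K-562 cells are known for displaying little class I at their surface. MPP8 is the chromodomain subunit of the HUSH silencing complex, in which TASOR is the scaffold. TASOR2 is a paralog of TASOR.

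The stretches of DNA that the results turn on are the start regions of these genes. Those below were taken from RefSeq promoter windows (GRCh38.p14), which run from 250 bases before an annotated start site to 50 after it, and are written 5′ to 3′ on the strand of the gene. Capitals mark every match to the core of the ISRE, GAAANNGAA, on either strand, so that a match on the opposite strand reads as TTCNNTTTC. The first 6 lie whole under a TASOR KO peak, and the last, TAPBP, is shown because it holds the same motif without a peak. All were chosen for holding the motif. Windows met by a peak but without the motif, at PSMB9 and at the upstream start sites of PSMB8 and ERAP2, are not shown.
TAP2, chr6:32838740-32838989, minus strand: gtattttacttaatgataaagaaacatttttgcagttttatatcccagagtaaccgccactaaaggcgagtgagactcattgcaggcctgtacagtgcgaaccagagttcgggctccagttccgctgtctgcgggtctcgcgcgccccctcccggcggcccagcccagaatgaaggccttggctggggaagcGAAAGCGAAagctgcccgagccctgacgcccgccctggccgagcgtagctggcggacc
TAP1, chr6:32853705-32853954, minus strand: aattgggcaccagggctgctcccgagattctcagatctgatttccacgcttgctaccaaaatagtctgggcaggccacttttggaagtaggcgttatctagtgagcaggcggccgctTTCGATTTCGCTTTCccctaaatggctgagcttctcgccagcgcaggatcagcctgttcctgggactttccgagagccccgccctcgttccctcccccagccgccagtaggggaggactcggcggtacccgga
PSMB8, chr6:32844018-32844117, minus strand: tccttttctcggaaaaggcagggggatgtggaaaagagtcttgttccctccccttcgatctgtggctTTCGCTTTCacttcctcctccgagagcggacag
ERAP1, chr5:96807916-96808015, minus strand: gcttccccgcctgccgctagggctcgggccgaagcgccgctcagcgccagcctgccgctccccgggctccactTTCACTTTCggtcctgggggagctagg
ERAP2, chr5:96876424-96876523, plus strand: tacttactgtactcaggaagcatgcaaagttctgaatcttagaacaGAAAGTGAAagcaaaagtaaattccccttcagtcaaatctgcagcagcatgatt
B2M, chr15:44711330-44711429, plus strand: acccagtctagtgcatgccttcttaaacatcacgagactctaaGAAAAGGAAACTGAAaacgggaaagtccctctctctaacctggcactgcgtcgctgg
TAPBP, chr6:33314049-33314148, minus strand: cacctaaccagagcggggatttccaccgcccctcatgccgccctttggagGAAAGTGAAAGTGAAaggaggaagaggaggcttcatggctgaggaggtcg

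In TASOR KO cells MPP8 peaks lay at 7 of the 9 genes, beside 1.23% of all protein-coding genes under the same rule (246 of 20037). In TASOR2 KO cells they lay at 0 of the 9, beside 1.03% (206 of 20037). The 7 genes were TAP1, TAP2, PSMB8, PSMB9, B2M, ERAP1 and ERAP2, and TAPBP and NLRC5 had none. At a q of at most 0.258, the largest in the TASOR2 KO list, B2M dropped out and the TASOR KO count was 6 of the 9, beside 0.948%. With a q of 0.05 or less the TASOR KO count was 4 of the 9, beside 0.574% of protein-coding genes, and 3 with gene bodies alone, beside 0.494%. The 7 genes were met by 6 distinct peaks, because TAP1 and PSMB9 share one. Of these 6, 3 had a deposited q of 0.05 or less, against 138 of the 427 peaks of the list (32.3%). Peaks are ranked below by the deposited −log10 q, and the fold is the enrichment over background that the authors' peak caller gave.

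The strongest peak of the group lay at TAP2, which encodes one chain of the transporter that pumps peptides into the endoplasmic reticulum. TAP2 (gene ID 6891) occupies 32821831 to 32838739 on chromosome 6 (hg38) and is read from its upper end. The peak ran from 32838180 to 32839647, over the start site, with a fold of 4.67, a −log10 q of 5.57 and rank 13 of 427. By fold it ranked 44. Of its 1468 bp, 560 lay inside TAP2 and the rest upstream, and it overlapped the body of no other annotated gene. Its q, 2.71e-06, was the smallest among the 6 peaks.

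TAP1 encodes the other chain of the transporter, and PSMB9 the immunoproteasome subunit also known as LMP2. The genes are transcribed away from each other, with start sites 488 bp apart. TAP1 (gene ID 6890) lies at 32845209 to 32853704 and PSMB9 (gene ID 5698) at 32854192 to 32859851 of chromosome 6. A single peak from 32853248 to 32854731 covered both start sites, with a fold of 3.19, a −log10 q of 1.18 and rank 150. It extended 457 bp into TAP1 and 540 bp into PSMB9, and these counts are therefore not independent. Its q of 0.0666 did not reach 0.05. TAP1 has a further annotated start site at 32852761, inside the gene, which no peak covered.

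PSMB8 encodes the immunoproteasome subunit LMP7 and lies between TAP2 and TAP1 (gene ID 5696, 32840717 to 32844679). Its peak ran from 32843688 to 32844901, over both annotated start sites of the gene, at 32844679 and 32844047. It was a weak one, with a fold of 2.79 (rank 418 of 427 by fold), a −log10 q of 0.600, a q of 0.251 and rank 262. The same peak overlapped PSMB8-AS1, a noncoding gene on the other strand whose promoter window it also covered. ChIP does not tell strands apart, so the peak cannot be assigned to PSMB8 or to its antisense partner.

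The 3 peaks of this cluster fell within 16.6 kb, from 32838180 to 32854731, and covered 4166 bp of it. They were separated by 4040 bp between the TAP2 and PSMB8 peaks and by 8346 bp between the PSMB8 and TAP1/PSMB9 peaks. Chromosome 6 carried 36 TASOR KO peaks in all. The whole list holds 2 runs of 3 peaks that fit within such a span, this one and one on chromosome 7 from 158331091 to 158342495. The map of the cluster shows each peak at a start site and none over the bodies between them.

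**Figure D1:**
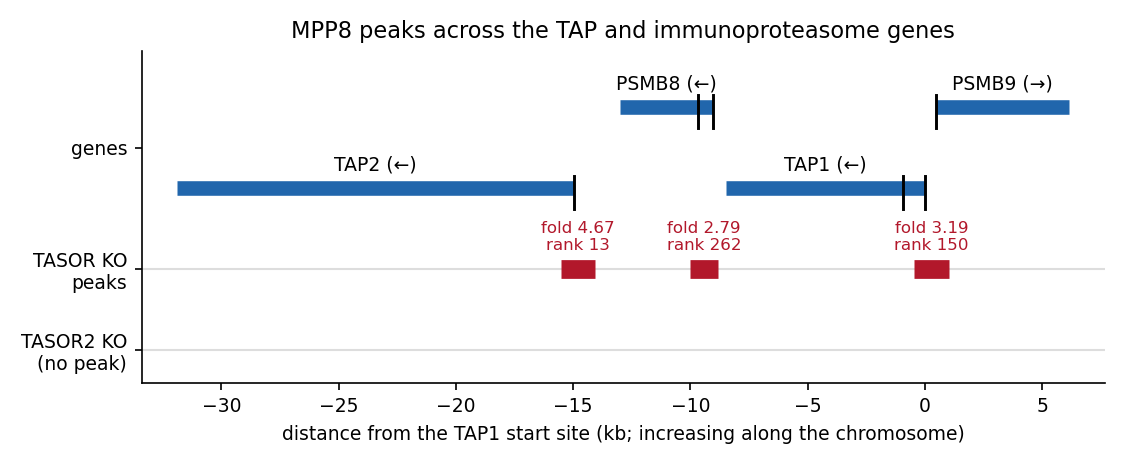
Map of the 4 neighbouring genes, with distance from the TAP1 start site in kb on the horizontal axis. Blue bars are annotated genes with an arrow for the direction of transcription, black ticks are annotated start sites, and red bars are TASOR KO peaks with the authors' fold and the rank among 427. The strongest peak lies at TAP2 (fold 4.67), the TAP1 and PSMB9 start sites share a peak (3.19), PSMB8 has the weakest (2.79), and the TASOR2 KO row is empty.

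The 5 kb limit bears on neighbours in this cluster. The PSMB8 peak lay just inside it for TAP2, 4949 bp from the gene, while the TAP2 peak was just outside it for TAP1, at 5562 bp. The TAP2 peak also lay 1070 bp from PSMB8, and the PSMB8 peak 308 bp from TAP1. Each of the 4 genes had its own start site under a peak, so none of them was counted through a neighbour alone. At a q of 0.05 or less, however, PSMB8 was counted only through the TAP2 peak.

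The gene of the light chain had a listed peak and that of the loading factor had none, which in a partial list does not show that they differ. B2M, which encodes beta-2 microglobulin (gene ID 567, chromosome 15, 44711517 to 44718145), carried the weakest peak of the group by −log10 q. It ran from 44711235 to 44712526, began at −282 bp from the start site and had a fold of 2.91, a −log10 q of 0.394 and rank 404. Its q of 0.403 places it near the end of the list, where 5.39% of peaks had a lower −log10 q. The TASOR2 KO list holds no peak with a q above 0.258, so its lack of a B2M peak this weak shows no difference between the knockouts. The peak also overlapped PATL2, a neighbouring gene for an RNA-binding protein, and covered promoter windows of both genes. TAPBP, which encodes tapasin (gene ID 6892, chromosome 6, 33299694 to 33314078), had no peak. The nearest TASOR KO peak was the one shared by TAP1 and PSMB9, 445 kb away.

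ERAP1 and ERAP2 encode the aminopeptidases that trim peptides to the length that class I molecules hold. They lie beside each other on chromosome 5 and are annotated with overlapping bodies: ERAP1 (gene ID 51752) from 96760813 to 96935854, read downwards, and ERAP2 (gene ID 64167) from 96875984 to 96919716, read upwards. Both start regions carried a TASOR KO peak with a q below 0.05. The ERAP1 peak ran from 96807475 to 96809411 (fold 3.35, −log10 q 1.38, rank 125). The ERAP2 peak ran from 96874286 to 96877276 (fold 3.89, −log10 q 1.61, rank 111) and, at 2991 bp, was the widest of the 6.

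The ERAP2 peak also lies inside the annotated body of ERAP1, since the annotated ERAP1 gene spans ERAP2. It covered both annotated ERAP2 start sites, at 96875984 and 96876500, and no ERAP1 start site in the promoter table. The ERAP1 peak covered the ERAP1 start site at 96807945 but not the one at 96814145, and it overlapped the noncoding gene LOC124901033. The stretch between the peaks measured 64874 bp and held no other peak, as the map of the locus shows. LNPEP, the related peptidase gene next to ERAP1, had none within 5 kb.

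**Figure D2:**
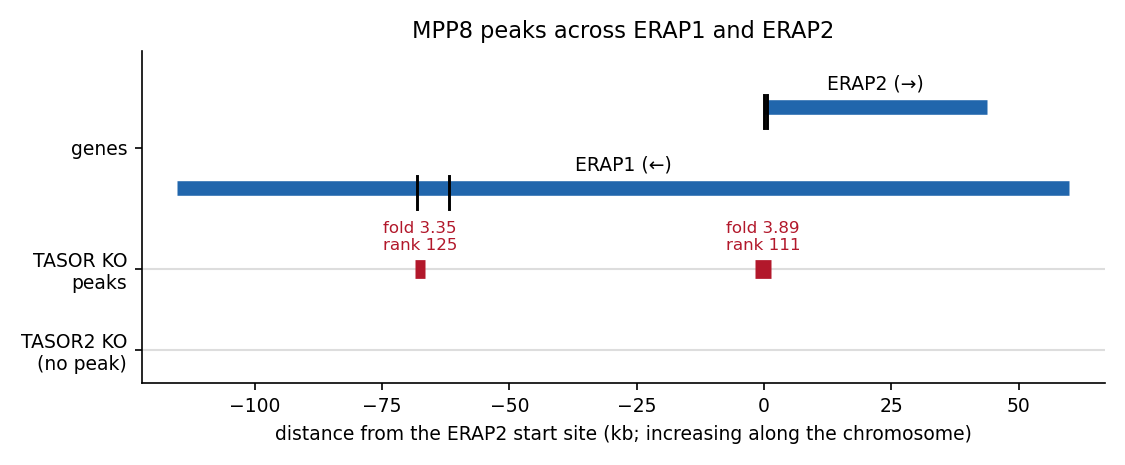
Map of ERAP1 and ERAP2, with distance from the upstream ERAP2 start site in kb on the horizontal axis. Blue bars are annotated genes with an arrow for the direction of transcription, black ticks are start sites, and red bars are TASOR KO peaks with fold and rank. A peak lies at the ERAP1 start site at 3.35-fold and another at the ERAP2 start sites at 3.89-fold, and the TASOR2 KO row is empty.

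NLRC5 encodes the transactivator that drives class I genes (gene ID 84166, chromosome 16, 56989557 to 57083520). It had no peak in either list. The nearest TASOR KO peak was 21.5 Mb away and the nearest TASOR2 KO peak 32.2 Mb away, on a chromosome with 12 and 10 peaks.

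Within the TASOR KO list the 6 peaks were spread from near the top to near the bottom. Their folds ran from 2.79 to 4.67 with a median of 3.27, where the whole list had a median of 3.35 and a range of 2.49 to 6.57. Their median −log10 q was 1.28, against 0.796 for all 427 peaks. Their widths ran from 1214 to 2991 bp with a median of 1476 bp, against a list median of 1929 bp, and those at ERAP1 and ERAP2 were wider than that. Their median rank was 137.5. The 6 peaks thus differed in strength, though each covered an annotated start site, and the plot of ranks shows TAP2 apart from the other 5.

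**Figure D3:**
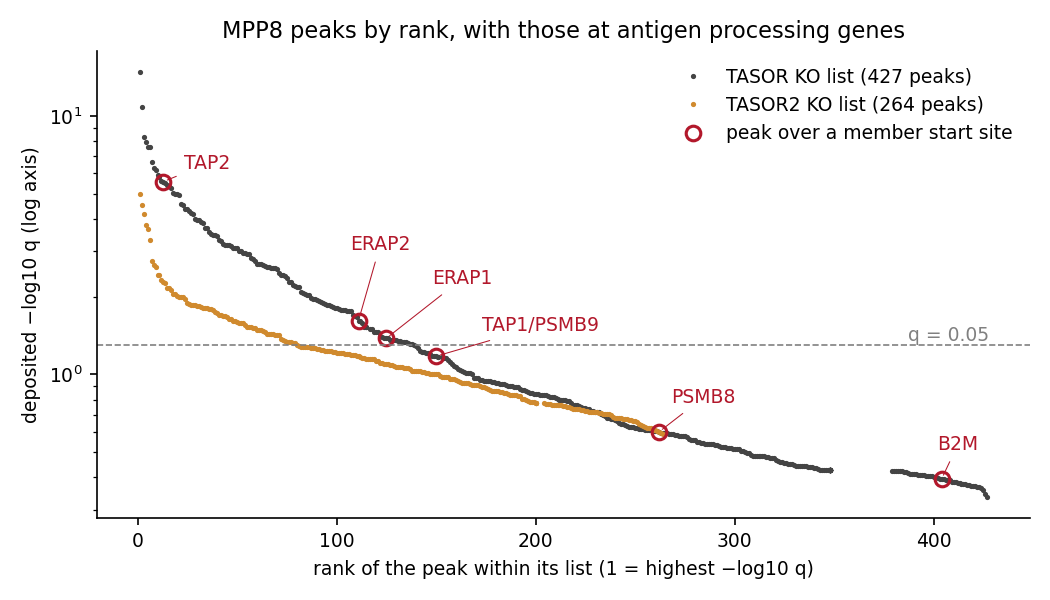
Deposited −log10 q of every peak (log axis) against its rank within its list, for TASOR KO (427 peaks, dark) and TASOR2 KO (264 peaks, orange), where tied peaks share a rank. Red rings mark the 6 TASOR KO peaks over a start site of the antigen processing genes. TAP2 (rank 13), ERAP2 (111) and ERAP1 (125) are above the dashed line at a q of 0.05, and TAP1/PSMB9 (150), PSMB8 (262) and B2M (404) are below it.

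All 6 peaks covered an annotated start site, and every one of the 7 genes had a start site under a peak. Among protein-coding genes with a promoter window in the table, 0.638% (101 of 15843) had a TASOR KO peak over such a window. NLRC5 and IRF2 had no entry in that table. Over the whole TASOR KO list, 92 peaks (21.5%) overlapped a protein-coding promoter window. In the TASOR2 KO list 1 peak of 264 did so (0.379%), and the share of genes was 0.00631% (1 of 15843). Absence of TASOR2 KO peaks at these start sites was thus shared with nearly every other gene of the table.

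The peaks were not placed in the same way around the start sites. Measured along the gene, the centre lay upstream at TAP2 (−174.5 bp), PSMB9 (−202.5 bp), ERAP2 (−203 bp from its upstream start site), TAP1 (−285.5 bp) and ERAP1 (−498 bp). At B2M it lay 363.5 bp inside the gene. At PSMB8 it fell between the start sites, 384.5 bp past the upstream one and at −247.5 bp from the other. The upstream edge ran from −222 bp at the upstream PSMB8 start site and −282 bp at B2M to −1698 bp at the upstream ERAP2 start site. These are the bounds of broad peaks, whose centres need not be where the signal was highest.

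**Figure D4:**
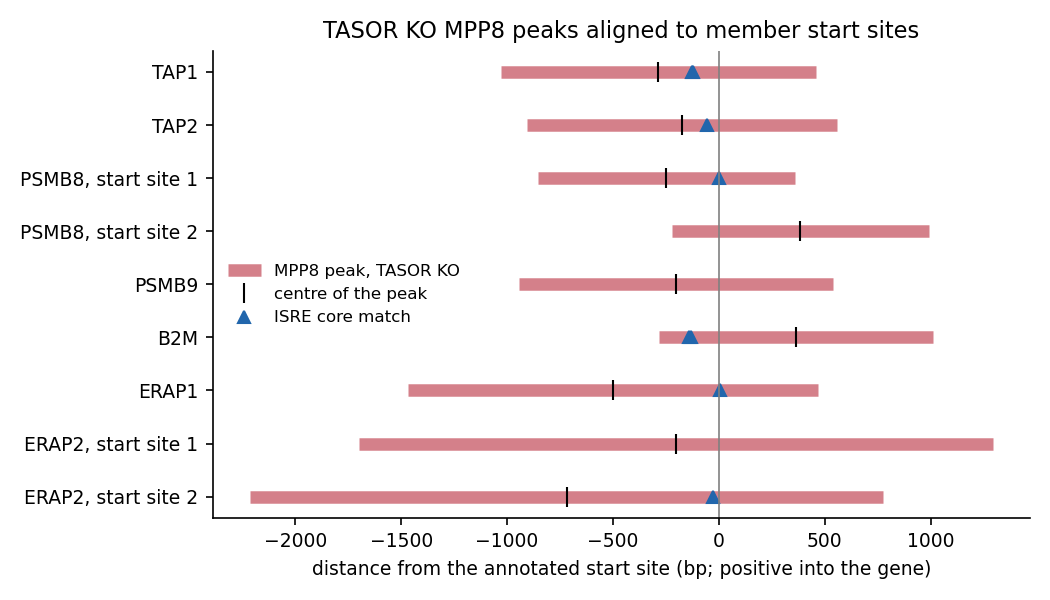
TASOR KO peaks (red bars) drawn against the annotated start site of each gene, in bp along the direction of transcription, with a black tick at the centre of the peak and blue triangles at matches to the ISRE core. For PSMB8 and ERAP2, start sites are numbered by coordinate, and TAP1 and PSMB9 show the same peak. Every bar crosses 0, with centres from −719 to 384.5 bp, and the triangles lie within 144 bp of the start site.

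The start regions were searched for 4 short motifs on both strands: the ISRE core GAAANNGAA, the gamma-activated sequence TTCNNNGAA, the NF-kappaB-like GGGNNTTTC, and CCAAT, the box bound by NF-Y. The ISRE core can overlap itself, and overlapping matches count once per window. Of the 9 member windows under a TASOR KO peak, 6 held the ISRE core (66.7%). Of all 12 member windows, with or without a peak, 7 held this core (58.3%). It was present in 7.09% of all protein-coding windows of the same length (1575 of 22199) and in 29.6% of those under a TASOR KO peak (34 of 115), members included. No test was made of these shares, and a match describes the letters only.

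The ISRE core was found at TAP2 from −58 to −50 bp, on the strand of the gene, and at ERAP2 from −30 to −22 bp of its second start site. At B2M a pair of overlapping cores ran from −144 to −130 bp. TAP1 had such a pair on the opposite strand, from −133 to −119 bp. At PSMB8 the core covered the start site at 32844047 itself, from −3 to 5 bp, and at ERAP1 it lay just past the start, from 3 to 11 bp, both on the opposite strand. The PSMB9 window had none, but its peak is the one it shares with TAP1. Counted by peak, each of the 6 covered a window with the core, against 25 of the other 86 TASOR KO peaks over a protein-coding window (29.1%). The member peaks overlapped from 1 window, at TAP2, to 3, at B2M with PATL2. A peak over more windows has more chances of a match, and windows per peak were not equalised in this count.

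TAPBP, with no peak in these partial lists, has overlapping cores from −20 to −6 bp. NLRC5, the other member without a peak, had no window to search, so members with and without a peak were not compared. The other motifs were found in fewer of the member windows. The gamma-activated sequence was in 1 of the 9 windows under a peak, at PSMB8 (11.1%). It was in 6.79% of protein-coding windows and in 15.7% of those under a TASOR KO peak (18 of 115). The NF-kappaB-like letters were in 2, at TAP1 and B2M (22.2%), against 4.79% and 8.70%. CCAAT was in 4 of the 9 (44.4%), against 34.7% and 41.7%. The TAP1 and PSMB9 matches are the same bases, since their windows overlap.

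**Figure D5:**
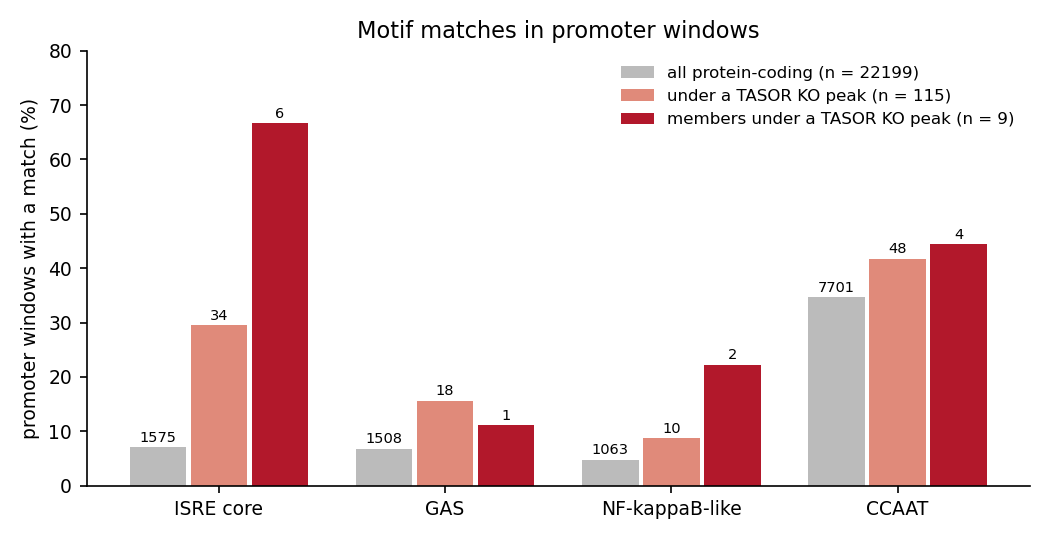
Share of promoter windows of 300 bp with a match to each motif (bars from 0, in percent, with the number of windows above each bar), for all 22199 protein-coding windows, the 115 under a TASOR KO peak and the 9 member windows under one. The ISRE core is in 7.09%, 29.6% and 66.7% of them, and the steps are smaller for CCAAT (34.7%, 41.7% and 44.4%).

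Base composition varied among the 7 genes. GC content of the windows under a peak ran from 40.3% at the second ERAP2 start site to 68.3% at PSMB9, where all protein-coding windows had a median of 62.3% (quartiles 53% and 70%). The observed over expected CpG ratio was 0.891 at TAP2, 0.863 at B2M and 0.850 at ERAP1, above the median of 0.737. At ERAP2 it was 0.0645 and 0.248 at the first and second start sites, below the lower quartile of 0.352. Peaks were therefore found at members with CpG-rich and with CpG-poor start regions.

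Of 41 other genes of antigen presentation, 1 had a TASOR KO peak and 0 a TASOR2 KO peak, beside the backgrounds of 1.23% and 1.03%. It was IRF2, which encodes an ISRE-binding factor (gene ID 3660, chromosome 4, 184387729 to 184474550). Its peak lay over the upper end of the gene, from 184473506 to 184475451 (fold 3.93, rank 91, q 0.0118). The other 9 regulators, such as CIITA, RFX5 and IRF1, had none.

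The class I heavy chain genes examined carried no peak. None of the 5 genes HLA-B, HLA-C, HLA-E, HLA-F and HLA-G had one in either list, nor did any of 11 class II genes. The same held for 4 loading factors such as calreticulin (CALR), 7 genes of the proteasome and its activator, PSMB10 and PSME1 among them, and 4 other peptidases. Between the outermost of these HLA genes, from 29723434 to 33089696 on chromosome 6, the TASOR KO list had 4 peaks, of which 3 are those at the TAP and PSMB genes. The fourth lay in the noncoding gene HCG27, 64493 bp from HLA-C. The TASOR2 KO list had 2 peaks there, in the noncoding genes HCG17 and HCG18. Mapping of reads in this highly variable region was not examined, since the lists hold no reads.

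In TASOR2 KO cells no peak lay within 5 kb of any member. The nearest were 2.52 to 2.55 Mb from the 4 clustered genes, 2999591 bp from TAPBP, 5.96 Mb from ERAP1 and 6.08 Mb from ERAP2. Chromosome 6 carried 17 TASOR2 KO peaks in all, and no background of such distances over other genes was computed. On chromosome 15, which carries B2M, the list had 0 peaks. Genotype cannot be told apart from library and from how each list was made.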

How the data were processed

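ChIP-seq peak lists of 2 of the 15 samples were used, MPP8 in TASOR KO and in TASOR2 KO cells, grouped by sample title. Per the labels' protocols, cells were fixed with 1% formaldehyde for 10 min and 80 µg of human chromatin received mouse chromatin as a spike-in at 1:40. The submitters' processing notes list Bowtie2 2.3.5.1, MACS2 and deepTools with hg38 and mm9. For the control library, the thresholds and the tags of 0.5 and 0.3 in the peak names no source used here gives a statement. The lists have 9 columns without a header. Deposited fold enrichment is a ratio, and deposited −log10 p and −log10 q are as the peak caller gave them, read from column order. The deposited score is the whole part of 10 times −log10 q in all 427 and 264 peaks. Each list names a single library, so the authors made 1 set of calls per library.

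Peaks were joined to RefSeq genes (GRCh38.p14) and to promoter windows of 300 bp (8 of the 9 genes had one, with 12 windows). Coordinates are 1-based. The annotation used has no exons, so exon, intron and UTR positions are not given. No p-value was computed, since each genotype has 1 library. The members, the 41 other genes and the motifs were chosen with earlier results of these data known. Named genes were all members, other pathway genes with a peak, and coding genes under a member's peak, while other genes named were chosen after their values were seen. The overlap count was tested on simulated data with peaks planted inside and outside the window. Of the planned other genes, 2 are not reported here. Alternatives were windows of 0, 1 and 10 kb, the upper part of each list by score, a q of 0.05, and at least 50% of the peak inside the window. Python 3.11.15, numpy 2.4.6, pandas 2.3.3 and matplotlib 3.10.9 were used.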

Additional observations from a re-analysis of the deposited data

How the results depend on the processing

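The TASOR KO count of 7 members was also 7 with gene bodies alone, with windows of 1 or 10 kb, and with at least 50% of the peak inside. Each of the 7 has a start site under a peak, and the nearest peaks to TAPBP and NLRC5 were 445 kb and 21.5 Mb away. These window sizes could therefore not change the count. The TASOR KO count was 6 in the higher-scoring part of the list (213 peaks), where B2M dropped out and PSMB8 was counted through the TAP2 peak. With a q of 0.05 or less (138 peaks) it was 4, of TAP2, PSMB8, ERAP1 and ERAP2, beside 0.574% of protein-coding genes. A common q threshold of 0.258 for both lists and a q of 0.05 with gene bodies alone were chosen after seeing the data. They gave 6 and 3, the latter TAP2, ERAP1 and ERAP2, beside 0.494%. The TASOR2 KO count was 0 in each. None of the alternatives could have raised it, since the TASOR2 KO peak closest to any member was 2.52 Mb away. The other 41 genes had counts of 1 and 0, also with gene bodies alone and with a q of 0.05. No paired analysis was possible because there was only 1 library of either knockout, which also means that none could be left out. Depth is unknown, so weak peaks such as that at B2M carry no counting interval.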
